A study of Mus musculus with 33 samples.

Results

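The ribose methylation sites SSU-Cm797, SSU-Um799, SSU-Am1031, SSU-Cm1272 and SSU-Um1288 lie in the middle of mouse 18S ribosomal RNA (rRNA). In these names SSU stands for the small ribosomal subunit, the letter before the m gives the methylated nucleotide, and the number is the position in human 18S rRNA. They are all rows of the authors' 18S site list with a human position from 790 to 1300, apart from SSU-Gm867, and make up 5 of the 108 listed sites and 5 of the 40 listed in 18S rRNA. Methylation was measured by RiboMeth-seq, in which RNA is broken by alkali and the ends of the fragments are counted at every rRNA nucleotide. Whole-cell RNA came from mouse adult brain, heart, kidney, liver and lung, from the same 5 organs of embryos at day E16.5, and from the whole head of embryos at day E9.5, with 3 libraries in each of the 11 groups and 33 in all. The labels name no strain, genotype or treatment, give no age for the adult mice, and do not say whether the 3 libraries of a group came from different animals, so p-values measure only the spread between these libraries. The tables count rRNA nucleotides alone, so the organ labels could not be set against marker genes.

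Most ribose methylation of rRNA is made by fibrillarin, the methyltransferase of the box C/D small nucleolar ribonucleoproteins. Each of these particles carries a small nucleolar RNA (snoRNA) that pairs with the rRNA and places the enzyme over 1 nucleotide. In human cells SNORD105 is the guide known for Um799, SNORD59 for Am1031, SNORD66 for Cm1272 and SNORD110 for Um1288. SSU-Cm797, SSU-Um799 and SSU-Am1031 lie in the central domain of 18S rRNA, and SSU-Cm1272 and SSU-Um1288 in the 3′ major domain, which folds into the head of the small subunit. A methyl group on the ribose protects the bond that follows it from alkali, so few fragments end at a methylated nucleotide.

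The sequence around each site is shown because the score of a site is read against its neighbours. The letters are those of the rRNA reference in the deposited sheets, from 12 nucleotides before to 12 after a site, 5′ to 3′ on the rRNA strand, with the listed sites in capitals. Positions are those of the mouse reference, each 2 above the human number, and no genome build applies to them.
SSU-Cm797 and SSU-Um799, 18S nucleotides 787 to 813: cggggcccgaagCgUuuacuuugaaaa
SSU-Am1031, 18S nucleotides 1021 to 1045: cauuaaucaagaAcgaaagucggag
SSU-Cm1272, 18S nucleotides 1262 to 1286: accucacccggcCcggacacggaca
SSU-Um1288, 18S nucleotides 1278 to 1302: acacggacaggaUugacagauugau
SSU-Cm797 and SSU-Um799 are separated by a single guanosine, so that each lies in the other's flanking window. SSU-Cm1272 stands in the most G and C rich of the windows, at 72% G and C, against 56% at the median window of this length in 18S rRNA. The windows of 12 nucleotides on each side of the other 4 sites hold between 40% and 56%.

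The score of a nucleotide is 1 minus its read ends divided by the weighted mean of the read ends at its 6 neighbours on each side, with negative scores set to 0. A score of 1 means no read ends at the site and 0 means no protection. Libraries held between 463388 and 35156406 read ends, with a median of 8896504, and all 5 sites had a flanking mean of at least 10 read ends in every library. That minimum made 107 of the 108 listed sites testable. The third E16.5 lung library was the shallowest, and its flanking mean was 34.4 read ends at SSU-Cm1272 and 49.9 at SSU-Cm797. Exact Poisson 95% intervals cover only the counting error of the read ends at the site itself, with the flanking mean taken as fixed. These intervals had a median width between 0.0196 at SSU-Am1031 and 0.0756 at SSU-Cm1272. In the shallowest library they reached from 0.357 to 0.740 at SSU-Cm797 and from 0.542 to 0.8997 at SSU-Cm1272.

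Libraries stood apart by the number they carry and by sets of groups. The authors replaced some group means by scores from the 5′ ends of reads alone, in means they call barcode-corrected, and which means they replaced at SSU-Am1031 and at another 18S site split the groups into 3 library sets. The labels name no such batch, and the sets are an inference from the authors' corrections. Adult brain and liver form set A. Set B holds adult kidney, adult lung, E16.5 heart, E16.5 brain and the E9.5 head, and set C holds adult heart with 3 E16.5 organs, kidney, liver and lung. In each organ the adult and E16.5 libraries fall in different sets, so within an organ stage and set cannot be told apart. The median score over the testable listed sites of a library also moved with stage, lying between 0.928 and 0.972 in the 15 adult libraries and between 0.857 and 0.9525 in the 15 E16.5 libraries.

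SSU-Cm1272 was far less protected than the other 4 sites. Over the 33 libraries the score averaged 0.949 at SSU-Um799, with a lowest value of 0.884, a median of 0.947 and a highest of 0.989. SSU-Am1031 averaged 0.930, running from 0.524 over a median of 0.957 to 0.987. SSU-Um1288 averaged 0.916, running from 0.770 over a median of 0.936 to 0.982. These sites sat near full protection in most libraries, and the low end of SSU-Am1031 came from single libraries described with that site. SSU-Cm797 averaged 0.885, running from 0.580 over a median of 0.932 to 0.985. SSU-Cm1272 averaged 0.575, running from 0.148 over a median of 0.602 to 0.891, which placed it 106th of the 108 listed sites by mean score. The standard deviation (SD) between libraries, pooled over the 11 groups, was 0.0199 at SSU-Um799, 0.0550 at SSU-Um1288, 0.0946 at SSU-Cm797, 0.0984 at SSU-Am1031 and 0.153 at SSU-Cm1272. For scale, the 486 unlisted nucleotides of the same stretch had a median mean score of 0.151, 24 of them had a mean of at least 0.5 and 0 reached 0.75.

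**Figure D1:**
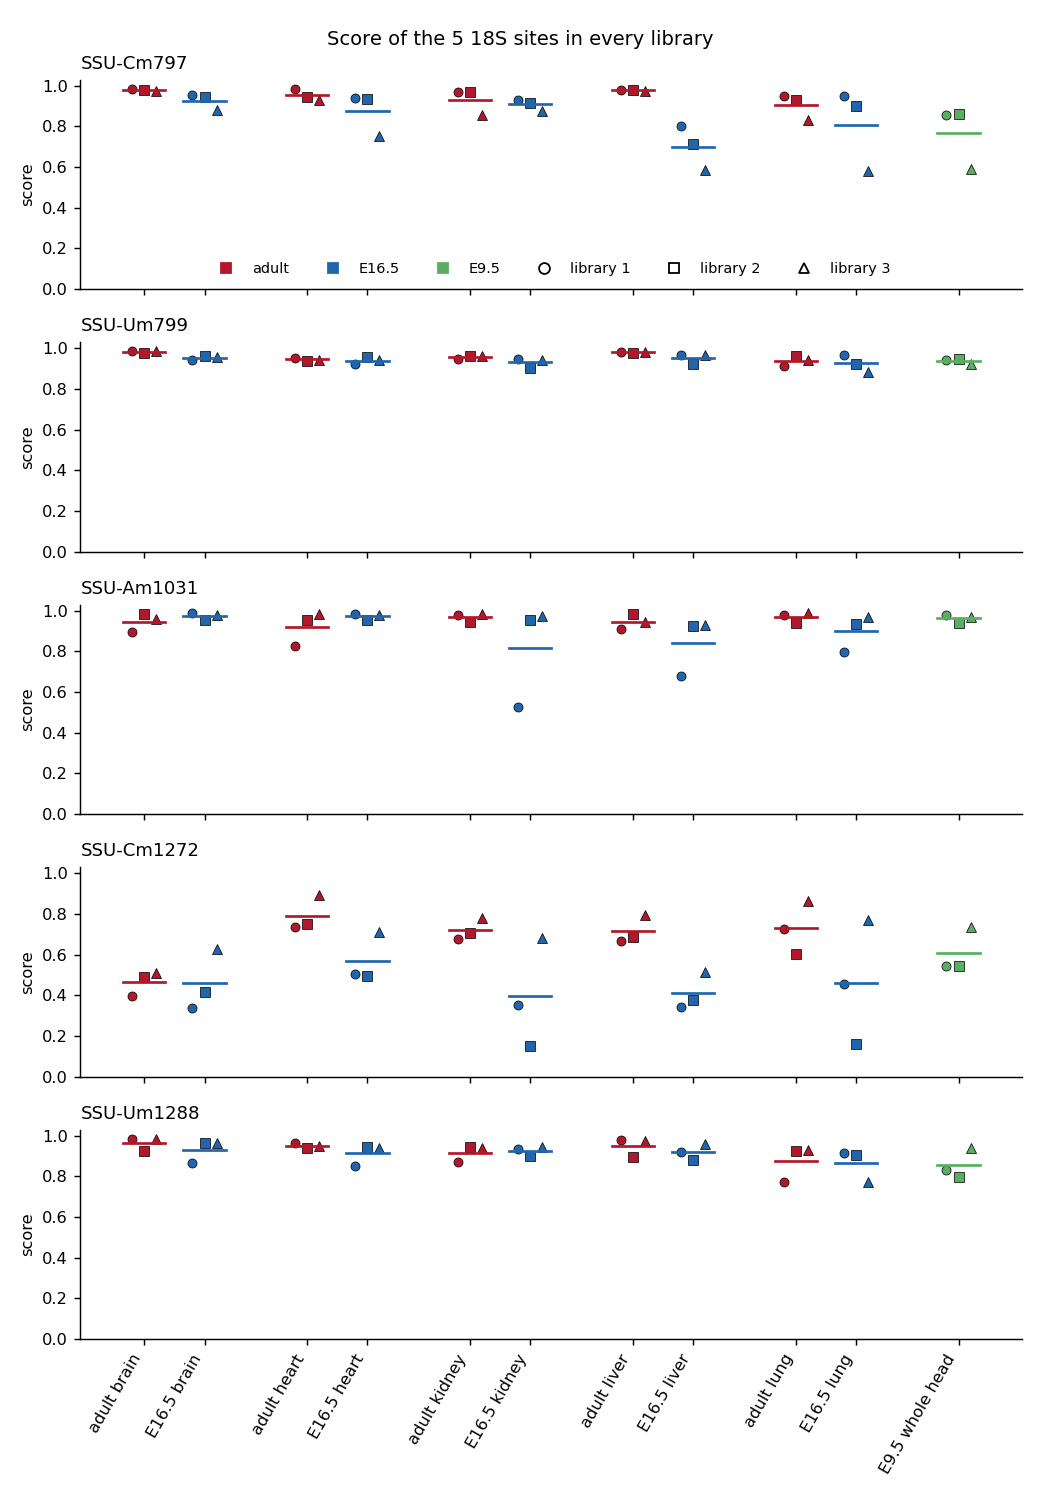
Score of each of the 5 sites (y axis, 0 to 1, 1 panel a site) in every library, with the 11 groups along the x axis, colour giving the stage, symbol the library number and horizontal lines the group means. SSU-Cm1272 spreads from 0.148 to 0.891, while SSU-Um799 stays between 0.884 and 0.989.

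The comparison of stages asks whether methylation differs between adult organs and the same organs at E16.5. With the 5 organs weighted equally, SSU-Cm1272, SSU-Cm797 and SSU-Um799 scored higher in adult than in E16.5 tissue, and SSU-Am1031 and SSU-Um1288 did not pass the test. The test was limma on the scores of all testable sites, with a Benjamini-Hochberg adjusted p under 0.05 taken as a call. The 3 of 5 sites called compare with 41 of the 107 testable sites, or 38.3%, of which 39 were higher and 2 lower in adult tissue. Of the other 35 testable 18S sites, 13 were called higher and 1 lower. The median adult minus E16.5 difference was 0.0481 over the 5 sites and 0.0324 over all testable sites. With every library's median set equal, 20 sites were called higher and 26 lower, 43% in all, and SSU-Cm1272 was the 1 call left among the 5.

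**Figure D2:**
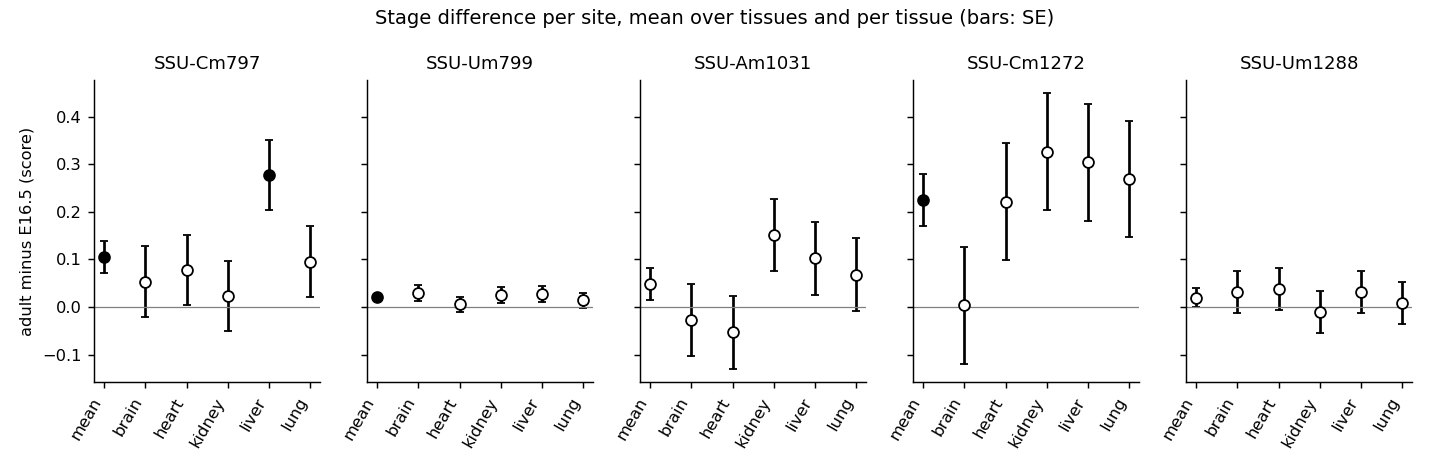
Adult minus E16.5 difference in score (y axis) for each of the 5 sites, as the mean over the 5 organs and in each organ along the x axis, with bars of 1 standard error from limma and filled circles where the site was called. At SSU-Cm1272 the mean difference is 0.225 and the brain difference 0.00356.

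SSU-Cm1272 showed the widest difference between the stages among the 5 sites. In heart its 3 libraries scored 0.733, 0.749 and 0.891 in adults, against 0.505, 0.494 and 0.710 at E16.5. In kidney they scored 0.679, 0.704 and 0.778 in adults, against 0.353, 0.148 and 0.681 at E16.5. The adult libraries of heart all lay above the E16.5 libraries of heart, while in kidney the lowest adult library lay just below the highest E16.5 library. In liver the scores were 0.668, 0.688 and 0.795 in adults, against 0.343, 0.378 and 0.516 at E16.5. In lung they were 0.723, 0.602 and 0.863 in adults, against 0.453, 0.160 and 0.768 at E16.5. The liver groups did not overlap and the lung groups did. In brain they were 0.396, 0.489 and 0.509 in adults, against 0.337, 0.417 and 0.628 at E16.5, so the adult values lay within the E16.5 range.

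Over the 5 organs SSU-Cm1272 averaged 0.684 in adults and 0.459 at E16.5, a difference of 0.225 ± 0.0549 (SE, 15 libraries each, limma adjusted p = 0.00196). With all libraries, all read ends and no block, the site was not called in any single organ. The difference was 0.222 in heart (limma adjusted p = 0.354), 0.326 in kidney (0.0833), 0.304 in liver (0.0602), 0.269 in lung (0.149) and 0.00356 in brain (0.996), each with a SE of 0.123. For comparison, 7.48% of testable sites were called in brain, 7.48% in heart, 11.2% in kidney, 28% in liver and 15.9% in lung. The low brain difference was not shown to differ from the rest: brain minus the mean of the other 4 organs was -0.277 ± 0.137 (SE, limma adjusted p = 0.449), where 3.74% of sites were called. Without the third E16.5 lung library, the shallowest, the lung difference was 0.423 (limma adjusted p = 0.0187). Without the third E16.5 kidney library the kidney difference was 0.470 (limma adjusted p = 0.0114). The third library was the highest at this site in 11 of 11 groups. These fits left it out at E16.5 but kept it in the adults, which widens the difference. Leaving out a library of another organ also gave calls, with the difference unchanged. Kidney was called without the third E16.5 lung library (limma adjusted p = 0.0378). Liver was called without the second or the third library of E16.5 kidney or of E16.5 lung (limma adjusted p from 0.0267 to 0.0487). The share of all sites called in these fits is not given here.

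The call at SSU-Cm1272 ended with the 3′ ends of reads alone, where the difference was 0.175 ± 0.0657 (SE, limma adjusted p = 0.0604, 20.6% of sites called), against 0.280 ± 0.0516 (limma adjusted p = 3.6e-05, 62.6% called) with the 5′ ends alone. From 5′ ends the site was also called in heart, at 0.3604 where 14% of sites were called, in kidney, at 0.362 where 19.6% were, and in lung, at 0.389 where 21.5% were. Inside set C, adult heart averaged 0.791 and the E16.5 kidney, liver and lung groups 0.422, a difference of 0.369 ± 0.1002 (SE, limma adjusted p = 0.00795), with 17.8% of sites called. Inside set B, adult kidney and lung averaged 0.725 and E16.5 brain and heart 0.515, a difference of 0.210 ± 0.0868 (SE, limma adjusted p = 0.167), with 5.61% of sites called. Both comparisons set adult organs against other E16.5 organs, so stage and organ cannot be told apart in them.

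Among the adult organs, brain had the lowest SSU-Cm1272 scores. Its 3 libraries, at most 0.509, all lay below the other 12 adult libraries, of which the lowest was 0.602. Adult brain averaged 0.464 ± 0.0604 (SD, n = 3), adult liver 0.717 ± 0.0680, adult kidney 0.720 ± 0.0513, adult lung 0.729 ± 0.130 and adult heart 0.791 ± 0.0869. Adult brain minus the mean of the other 4 was -0.275 ± 0.0970 (SE, limma adjusted p = 0.230), and 0 of the 107 sites were called in that comparison. Brain is the organ that stood lowest in these same scores, so this is not a test of an organ named beforehand. Adult liver, the other group of the same library set, exceeded adult brain by 0.253 ± 0.123 (SE, limma adjusted p = 1), and again 0 sites were called.

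SSU-Cm797 had its lowest group mean in the E16.5 liver, at 0.701, although E16.5 lung held its lowest single score, 0.580. In liver the 3 libraries scored 0.981, 0.978 and 0.9745 in adults, against 0.805, 0.713 and 0.584 at E16.5. The groups did not overlap, and the difference of 0.277 ± 0.0743 (SE) was called by limma, with an adjusted p of 0.00586. With all libraries, all read ends and no block, SSU-Cm797 in liver was the 1 member called in any single organ. In liver 28% of all testable sites were called, and 12 of the other 35 testable 18S sites. In lung the scores were 0.951, 0.929 and 0.833 in adults, against 0.949, 0.899 and 0.580 at E16.5. In heart they were 0.985, 0.943 and 0.932 in adults, against 0.938, 0.934 and 0.755 at E16.5. In these organs the first 2 E16.5 libraries stayed close to the adult ones and the third lay far lower. In kidney the scores were 0.968, 0.969 and 0.858 in adults, against 0.931, 0.918 and 0.876 at E16.5. In brain they were 0.982, 0.978 and 0.977 in adults, against 0.953, 0.943 and 0.881 at E16.5, where the groups did not overlap.

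Over the 5 organs SSU-Cm797 averaged 0.949 in adults and 0.844 at E16.5, a difference of 0.105 ± 0.0332 (SE, limma adjusted p = 0.0138). It was 0.0742 ± 0.0165 with 5′ ends (adjusted p = 0.000399) and 0.135 ± 0.0666 with 3′ ends (adjusted p = 0.174), so the 3′ ends gave the larger value and the wider spread. Without the third library of every group it was 0.0681 ± 0.0115 (limma adjusted p = 0.000259, 39.3% of sites called). Inside set C, adult heart exceeded the 3 E16.5 organs by 0.147 (limma adjusted p = 0.0933). This comparison was called with 5′ ends, at 0.105 (limma adjusted p = 0.00643, 45.8% of sites called). With corrected scores it stayed at 0.147 (limma adjusted p = 0.0382, 26.2% called), with a SE of 0.0522 against 0.0607. No SSU-Cm797 score in set C changed there. The authors' corrected E16.5 lung mean, 0.847 against 0.809, was not rebuilt, so the uncorrected lung scores were kept. That call therefore does not rest on the authors' corrected means. Inside set B adult kidney and lung exceeded E16.5 brain and heart by 0.0174 (limma adjusted p = 0.9897). As at SSU-Cm1272, these comparisons in sets C and B set adult organs against other E16.5 organs, so stage and organ cannot be told apart. In set C the E16.5 liver averaged 0.701 and E16.5 kidney and lung 0.859, a difference of -0.158 ± 0.0644 (SE, limma adjusted p = 0.161, 9.35% of sites called). From 5′ ends the same comparison gave -0.106 ± 0.0320 (limma adjusted p = 0.0174, 24.3% called).

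SSU-Um799, next but 1 to SSU-Cm797, varied far less. It averaged 0.961 in adults and 0.940 at E16.5, a difference of 0.0203 ± 0.00747 (SE, limma adjusted p = 0.0326). In liver its libraries scored 0.984, 0.976 and 0.980 in adults, against 0.969, 0.921 and 0.966 at E16.5. In brain they scored 0.985, 0.978 and 0.989 in adults, against 0.943, 0.961 and 0.960 at E16.5. In liver and brain all adult libraries lay above the E16.5 ones, while in heart, kidney and lung the groups overlapped. Adult brain, at 0.984 ± 0.00521 (SD, n = 3), and adult liver, at 0.980 ± 0.00421, were the highest of the 11 groups, and adult liver did not overlap with adult kidney, the group next to it, at 0.956 ± 0.00824. No other pair of neighbouring groups was free of overlap at any of the 5 sites. With library medians set equal the stage difference at SSU-Um799 turned to -0.0132 (limma adjusted p = 0.223).

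SSU-Am1031 was close to full protection, apart from single libraries. In kidney its libraries scored 0.978, 0.945 and 0.986 in adults, against 0.524, 0.955 and 0.976 at E16.5. In liver they scored 0.909, 0.983 and 0.946 in adults, against 0.678, 0.926 and 0.928 at E16.5. In lung they scored 0.979, 0.940 and 0.987 in adults, against 0.797, 0.936 and 0.969 at E16.5. The low value was the first library each time, as in adult heart, with 0.828, 0.953 and 0.983, against 0.986, 0.957 and 0.981 in E16.5 heart. In brain the scores were 0.895, 0.983 and 0.962 in adults, against 0.987, 0.953 and 0.981 at E16.5. Over the 5 organs SSU-Am1031 averaged 0.950 in adults and 0.902 at E16.5, a difference of 0.0481 ± 0.0340 (SE, limma adjusted p = 0.246). Without the third E16.5 kidney library the kidney difference was 0.230 (limma adjusted p = 0.0485), against 0.151 (limma adjusted p = 0.233) with it.

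The low first libraries at SSU-Am1031 came from the 3′ ends. In the 4 groups of set C, the first library averaged 0.976 from 5′ ends and 0.505 from 3′ ends. Set C was drawn from the authors' correction of this same site, so this gap is not independent of the set. The authors' barcode-corrected group means exceeded the uncorrected means here: 0.972 against 0.921 in adult heart, 0.967 against 0.819 in E16.5 kidney, 0.946 against 0.844 in E16.5 liver, and 0.959 against 0.9004 in E16.5 lung. Taking the first library from its 5′ ends alone rebuilt all 4 of the authors' values. With corrected scores the stage difference at SSU-Am1031 was -0.00346 (limma adjusted p = 0.781), and its mean over all libraries was 0.962. The correction left adult brain and adult liver as they were. In these groups, which form set A, the first library averaged 0.994 from 5′ ends and 0.842 from 3′ ends. The corrected difference therefore rests on an uneven correction of the stages, and the part of this in its value was not tested. With 5′ ends alone in every library, SSU-Am1031 was called over the 5 organs, at 0.0151 ± 0.00498 (SE, limma adjusted p = 0.0106). All 5 sites were called with 5′ ends alone, where 62.6% of all testable sites were too. From 5′ ends SSU-Am1031 was also called inside set C. Adult heart exceeded E16.5 kidney, liver and lung by 0.0228 (limma adjusted p = 0.0403, 45.8% of sites called), where stage and organ cannot be told apart. E16.5 liver minus the mean of E16.5 kidney and lung was -0.0332 (limma adjusted p = 0.0148, 24.3% called).

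Of the 55 group means of the 5 sites, the authors' corrected values differ from the uncorrected ones in 6. The remaining 2 belong to SSU-Cm797: 0.823 against 0.770 in E9.5 whole head, and 0.847 against 0.809 in E16.5 lung. The E9.5 value was rebuilt with 5′ ends in the first and the third libraries. The E16.5 lung value was not rebuilt by any choice of libraries. The SD deposited with it was 0.0896, and the 3 scores from 5′ ends had a mean of 0.864 and an SD, divided by the number of libraries, of 0.0897. The authors' SDs divide by the number of libraries and not by that number less 1.

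**Figure D3:**
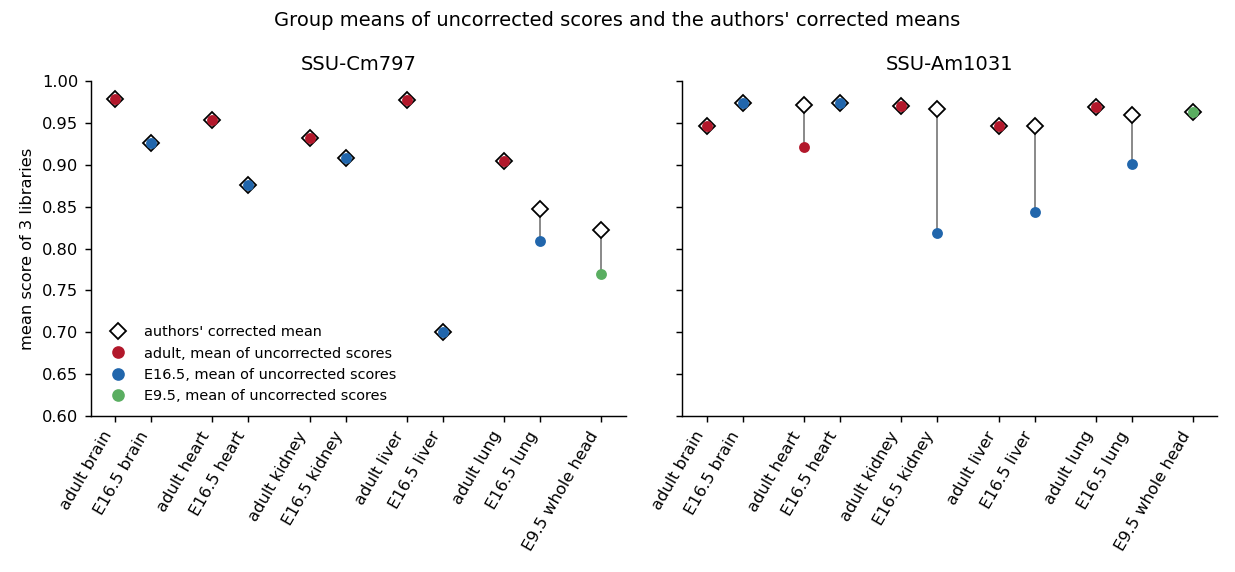
Group means of SSU-Cm797 and SSU-Am1031 (y axis, mean score of 3 libraries, drawn from 0.60 to 1) in the 11 groups along the x axis. Circles are uncorrected means coloured by stage, open diamonds the authors' corrected means, and lines join the 6 pairs that differ, in each of which the corrected mean is the higher.

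With all read ends SSU-Um1288 was not called between the stages in any organ. It averaged 0.931 in adults and 0.912 at E16.5, a difference of 0.0198 ± 0.0197 (SE, limma adjusted p = 0.412). In lung its libraries scored 0.770, 0.926 and 0.928 in adults, against 0.917, 0.906 and 0.774 at E16.5. Each stage of lung thus held 1 low library. In brain the scores were 0.982, 0.925 and 0.982 in adults, against 0.868, 0.963 and 0.963 at E16.5. In heart they were 0.964, 0.939 and 0.951 in adults, against 0.853, 0.947 and 0.942 at E16.5. The kidney and liver groups also overlapped, between 0.869 and 0.947 in kidney and between 0.879 and 0.981 in liver. With 5′ ends alone the difference over organs was 0.0268 ± 0.00809 (SE, limma adjusted p = 0.00593).

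The head and brain samples give 3 stages in order. SSU-Cm797 averaged 0.770 ± 0.155 in E9.5 whole head, 0.926 ± 0.0388 in E16.5 brain and 0.979 ± 0.00301 in adult brain (SD, n = 3 each). Its E9.5 libraries scored 0.859, 0.860 and 0.591. SSU-Um799 averaged 0.938 ± 0.0136, 0.954 ± 0.00982 and 0.984 ± 0.00521 at these stages. SSU-Um1288 averaged 0.857 ± 0.0744, 0.931 ± 0.0548 and 0.963 ± 0.0329, and SSU-Cm1272 0.609 ± 0.112, 0.461 ± 0.150 and 0.464 ± 0.0604. SSU-Am1031 averaged 0.963 ± 0.0209, 0.974 ± 0.0182 and 0.947 ± 0.0460. The E9.5 sample is the whole head and not the brain alone, so stage and tissue cannot be told apart. Adult brain is in set A and the E9.5 head in set B, so in that pair stage and library set cannot be told apart either.

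Adult brain exceeded E9.5 whole head by 0.209 ± 0.0743 at SSU-Cm797 and by 0.0463 ± 0.0167 at SSU-Um799 (SE, limma adjusted p = 0.0326 for both), and these 2 of 5 sites were called where 32.7% of testable sites were. The difference was 0.105 at SSU-Um1288 (limma adjusted p = 0.0690) and -0.144 at SSU-Cm1272 (limma adjusted p = 0.358), neither of them called. Without the third E9.5 library the difference at SSU-Cm797 was 0.120 (limma adjusted p = 0.223), while SSU-Um1288 was called, at 0.147 (limma adjusted p = 0.0261). Both calls also ended without any 1 of the adult brain libraries, and that of SSU-Um799 without the first or the third E9.5 library. Of E16.5 brain against E9.5 whole head, which belong to 1 library set, none of the 5 sites was called, where 8.41% of testable sites were. SSU-Cm797 differed there by 0.156 (limma adjusted p = 0.236). Same-numbered libraries of these groups deviated together, and with the library number within each set as a replicate block SSU-Cm797 was called (limma adjusted p = 0.0240, 20.6% of sites called).

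With all read ends and no block, none of the 5 sites passed the tests of variation between organs. Some passed under other settings. With 5′ ends alone 1 site was called among the adult organs (10 of 107 testable sites) and 2 among the E16.5 organs (33 of 107). With the block within each library set 2 were called in each of the 3 tests. There 41 of the 107 testable sites were called for variation between organs, 28 among adult organs and 53 among E16.5 organs. In the test of whether the stage difference varies between organs, with 13.1% of sites called, the adjusted p from limma's moderated F was 0.474 at SSU-Cm797, 0.586 at SSU-Am1031 and 0.618 at SSU-Cm1272. Among the 5 adult organs, with 4.67% called, the adjusted p was 0.393 at SSU-Um799 (unadjusted p = 0.0394) and 0.482 at SSU-Cm1272. Among the 5 E16.5 organs, with 16.8% called, it was 0.153 at SSU-Cm797 (unadjusted p = 0.0357). Between organs of 1 stage and 1 library set, SSU-Cm1272 differed by -0.00929 ± 0.123 for adult kidney minus adult lung and by 0.109 ± 0.123 for E16.5 heart minus E16.5 brain (SE), and none of the 5 sites was called in either, where 0.935% of sites were.

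The spread within groups moved with the library number at all 5 sites. SSU-Cm797 was lowest in the third library in 11 of 11 groups. In set B the 3′ scores of SSU-Cm797 averaged 0.595 in the third library, against 0.938 in the first and 0.924 in the second, while its 5′ scores averaged 0.914, against 0.925 and 0.940. SSU-Cm1272 was highest in the third library in 11 of 11 groups, averaging 0.716 there, against 0.522 in the first and 0.488 in the second. SSU-Um1288 was lowest in the first library in 4 of the 5 groups of set B. SSU-Am1031 was lowest in the first library in all 6 groups of sets A and C. For set C this is not independent of the set, which was drawn from the authors' correction at SSU-Am1031. SSU-Um799, with its narrow range, was lowest in the first library in 4 of the 5 groups of set B and highest in it in all 4 groups of set C. The part of the number in the differences between groups was tested only through the blocks and left-out libraries given here.

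**Figure D4:**
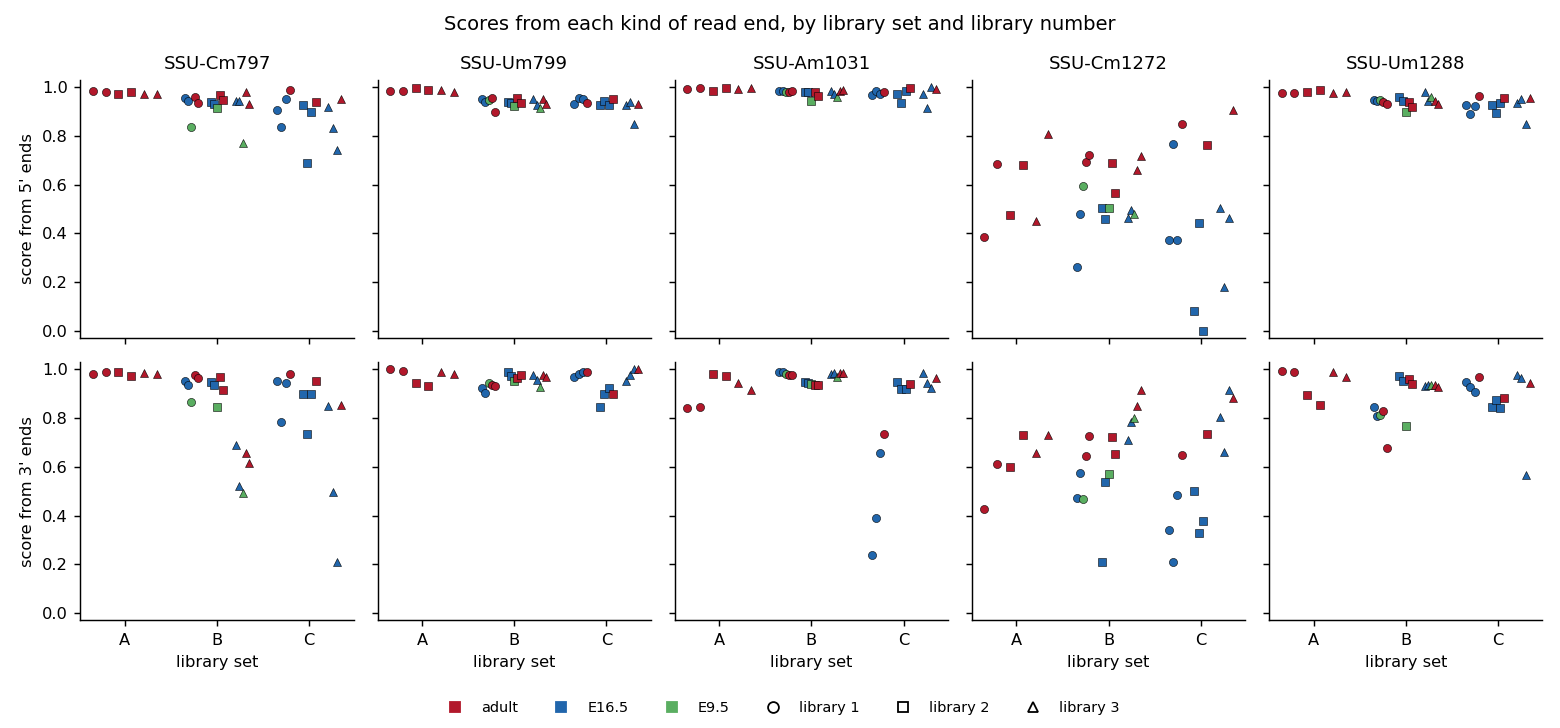
Scores of the 5 sites from 5′ read ends (upper row, y axis) and 3′ read ends (lower row, y axis) in each library, by library set (x axis), with colour for the stage and symbol for the library number. The 3′ scores of SSU-Am1031 in library 1 of set C and of SSU-Cm797 in library 3 of set B lie far below the 5′ scores. Set C was drawn from the authors' correction at SSU-Am1031.

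By the definition of the score, the read ends at a site relative to the flanking mean are 1 minus the score, so they restate it on the scale of the reads. Relative to the flanking mean, adult groups held on average 0.316 of the read ends at the SSU-Cm1272 nucleotide and E16.5 groups 0.541. At SSU-Cm797 the shares were 0.0507 in adult groups and 0.156 in E16.5 groups. At SSU-Um799 they were 0.0393 and 0.0595 in adult and E16.5 groups.

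**Figure D5:**
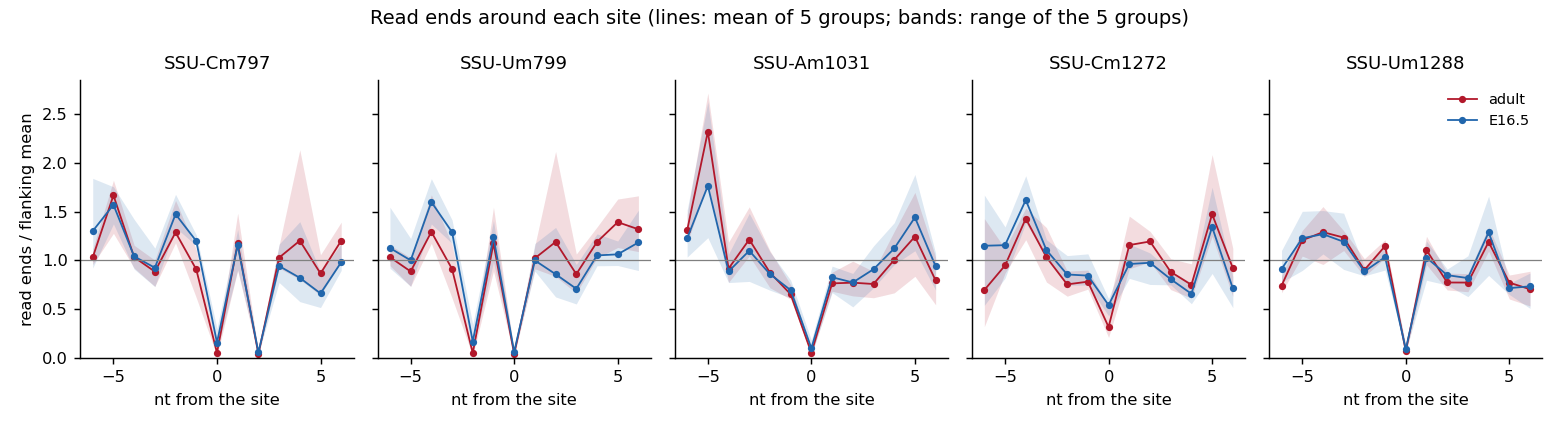
Read ends divided by the flanking mean (y axis) from 6 nucleotides before to 6 after each site (x axis), with lines for the mean of the 5 adult and the 5 E16.5 groups and bands for the range of those groups. The dip at the site is deep at 4 sites and shallow at SSU-Cm1272, where the adult mean lies below the E16.5 mean, and SSU-Cm797 and SSU-Um799 each show the other's dip.

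Over the 11 group means, the listed sites most like each of the 5, among the 102 other testable sites, were taken by Pearson correlation. The points share libraries and the shift of library medians, so the values are descriptions. SSU-Cm797 was most like SSU-Um121 (r = 0.968) and SSU-Gm867 (r = 0.938), the site left out of the stretch, whose group means ran between 0.186 in E16.5 liver and 0.941 in adult brain. SSU-Cm1272 was most like 5.8S-Um14 (r = 0.848), in the 5.8S rRNA, and LSU-Am4560 (r = 0.729), in the large subunit rRNA. SSU-Um799 was most like LSU-Am2774 (r = 0.929) and LSU-Cm3787 (r = 0.898). SSU-Am1031 was most like LSU-Am1521 (r = 0.974) and SSU-Am1383 (r = 0.971), and the authors corrected library 1 of both in the same 4 groups as at SSU-Am1031, and of SSU-Am1383 also in adult brain and liver, while the r rests on uncorrected means. SSU-Um1288 was most like SSU-Am27 (r = 0.868) and LSU-Am391 (r = 0.865). Among the 5 sites themselves, SSU-Um799 and SSU-Um1288 had r = 0.717, and the neighbours SSU-Cm797 and SSU-Um799 had r = 0.508.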

How the data were processed

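RiboMeth-seq libraries from 11 groups of mouse tissue, 3 each, were used. RNA was partly degraded in alkali, size-selected, ligated to linkers and read on an Ion Proton, per the labels' protocols. Cutadapt 2.0 and Bowtie2 2.3.4.1 are named in the submitters' processing notes. The deposited sheets give counts of 5′ and 3′ read ends per rRNA nucleotide and library, and scores as a fraction. The deposited overview sheet holds other values, the authors' barcode-corrected means and SDs.

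Scores were rebuilt from the counts with 6 neighbours on each side, weights from 1 to 0.5 and a floor of 0. Listed sites with a flanking mean of at least 10 read ends in every library were tested (107 of 108) with limma 3.58.1 in R 4.3.3, 1 mean per group over 33 libraries with a trend on the mean score, and Benjamini-Hochberg adjustment over all 107, threshold 0.05. The script was tested on simulated data. The 5 sites, the lists and the tests were chosen with earlier results of these data known. The rule named every site of the stretch, called or not, and for each the 2 most correlated other sites. Tables were handled in Python 3.11.15 with pandas 2.3.3 and numpy 2.4.6, and figures drawn with matplotlib 3.10.9.

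Same-numbered libraries were compared between adult and E16.5 in each organ, and between E9.5 whole head and brain of either later stage. They deviated together at every number only in E16.5 brain and E9.5 whole head (correlations 0.655, 0.807 and 0.734 over 107 sites). That was the 1 pair compared within a library set. Other pairs of groups within a set were not compared. Alternatives covered read ends, correction, scaling, scale, flanks, coverage, depth, variance, blocks and left-out libraries. The alternatives by library set and without the third libraries were chosen after seeing the data. Depth per library and its intervals are given with the results.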

Additional observations from a re-analysis of the deposited data

How the results depend on the processing

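The number of the 5 sites called depended on the read ends used. With 5′ ends alone it was 5 for the mean over organs (3 with all ends), 1 in heart (0), 1 in kidney (0), 3 in liver (1), 1 in lung (0), 1 for E16.5 brain minus E9.5 whole head (0), 4 for adult brain minus E9.5 (2), 1 among adult organs (0) and 2 among E16.5 organs (0). In that order 67, 15, 21, 62, 23, 26, 62, 10 and 33 of the 107 testable sites were called with 5′ ends alone. With 3′ ends alone it was 0 for the mean over organs, in liver and for adult brain minus E9.5. Here 22, 16 and 7 of the 107 testable sites were called. With library medians equal it was 1 for the mean (46 of 107 testable sites) and 0 for adult brain minus E9.5 (13 of 107). SSU-Um799 and SSU-Um1288 then turned to -0.0132 and -0.0137 over organs, and SSU-Um799 to -0.0077 for adult brain minus E9.5. With corrected scores SSU-Am1031 turned to -0.00346 over organs and adult brain minus E9.5 had 1 call (40 of 107). A flanking mean of at least 50, which only 3 of the sites reach, gave 1 call for the mean, 0 in liver and 1 for adult brain minus E9.5. Of the 62 sites tested there 28, 24 and 22 were called. Thinned libraries gave 2 for the mean (36 of 107), 1 in kidney (10) and 0 for adult brain minus E9.5 (14). The logit gave 1 in brain (20 of 107), 2 in liver (47), 3 for adult brain minus E9.5 (62) and 1 among adult organs (27). The combination in which additive set differences cancel gave 1 (19 of 107), SSU-Cm1272 at 0.260. The cause was not tested where none is named.

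The replicate block gave 1 in kidney, 2 in liver, 1 in lung and 1 among E16.5 organs. Of the 107 testable sites 17, 40, 19 and 23 were called there. With the block within each library set the calls were 4 for the mean, 1 in heart, 2 in kidney, 3 in liver, 1 in lung, 1 for E16.5 brain minus E9.5, 2 for variation between organs, 2 among adult organs and 2 among E16.5 organs. In that order 69, 28, 39, 58, 40, 22, 41, 28 and 53 of the 107 testable sites were called. For adult brain minus E9.5 the same block gave 3 calls (62 of 107). Without the third library of every group the calls were 2 for the mean, 1 in kidney, 2 in liver, 1 in lung, 1 for E16.5 brain minus E9.5, 1 for variation and 1 among E16.5 organs. Here 42, 16, 33, 9, 10, 13 and 18 of the 107 were called. The liver libraries alone gave 2 (24 of 107), and the adult libraries alone 1 (13 of 107).

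Leaving out 1 library at a time gave 2 to 3 calls for the mean, 0 to 2 in kidney, 1 to 2 in liver and 0 to 1 in lung. It gave 0 to 3 for adult brain minus E9.5, 0 to 1 among E16.5 organs and 0 elsewhere. With no library left out, 41, 12, 30, 17, 35 and 18 of the 107 testable sites were called in the tests named, in that order. The numbers of all sites called in the fits without 1 library are not given here, so these ranges have no background beside them. SSU-Cm1272 kept its call over organs in 33 of 33 such fits (0.195 to 0.256), SSU-Cm797 in 33 (0.0824 to 0.119) and SSU-Um799 in 24 (0.0161 to 0.0245). The call of SSU-Um799 ended without the first library of adult heart, adult liver, E16.5 brain or E16.5 heart, the second of adult lung, E16.5 kidney or E16.5 liver, or the third of adult brain or E16.5 lung. Of 106 alternatives for 8 results at single sites, 83 stayed on the same side of the threshold, 16 lost the call, 3 gained it and 4 changed sign.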

Other observations

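Several of the 486 unlisted nucleotides in the stretch had a higher mean score over the 33 libraries than SSU-Cm1272 (0.575). They went down to U at mouse position 1006 (0.613). The 3 with a mean above 0.7 are U at mouse position 1047 (0.728), A at 1219 (0.713) and U at 1250 (0.711). The last is human position 1248, known as a hypermodified uridine whose modification is on the base and not on the ribose. Its 33 scores ran from 0.336 to 0.937, and the mean was 0.614 from 5′ ends and 0.780 from 3′ ends.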
